A study of Mus musculus with 2 samples.

Results

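Aminoacyl-tRNA synthetases are the enzymes that join each amino acid to its transfer RNA. Their genes were followed in leukaemia cells from mice given vehicle or brequinar. The members were the protein-coding genes whose symbol is 1 letter followed by ars, ars1 or ars2, together with Eprs, Farsa and Farsb. This gave 37 genes of 45318 in the deposited table, of which 20 encode cytosolic enzymes and 17, with symbols ending in 2, encode mitochondrial ones. Sars and Sars2, for example, attach serine in the cytosol and in the mitochondrion.

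A cell needs charged tRNA for every amino acid in each place where it makes protein. The cytosolic enzymes feed the ribosomes that translate nuclear genes. The mitochondrial enzymes are also made from nuclear genes, are imported, and serve only the few proteins that the mitochondrial genome encodes. Several cytosolic enzymes sit together in the multisynthetase complex, held by the scaffold proteins Aimp1, Aimp2 and Eef1e1. A set of the cytosolic genes is widely listed among targets of Atf4, the transcription factor of the integrated stress response, which is switched on when amino acids run short or proteins misfold. Fast-growing blood cells, leukaemia cells among them, have a high demand for charged tRNA.

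Both groups were leukaemia blasts of the C57Bl/6 strain that carried the fusion oncogene MLL/AF9 and GFP, sorted from bone marrow by GFP fluorescence. In 1 group the mice had received vehicle, and in the other brequinar, an inhibitor of dihydroorotate dehydrogenase in pyrimidine synthesis. The study read each group in a single library, so the differences below lack any check by replicates and carry no p-values. For the dose, treatment time, age and number of the animals and the making of the leukaemia, nothing is given in the sources used here.

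The promoters of the members show 2 families of short elements in different compartments, and are given first because the values below are read beside them. RefSeq (GRCm38.p6) held promoter windows, from 250 bases before to 50 bases after the annotated start, for 27 of the 37 genes, with 28 windows in all. Among those not matched were Cars, Hars, Hars2, Lars, Nars, Pars2, Rars, Vars and Wars. The letters TGATGNAA, which the composite element of Atf4 and C/EBP factors contains, stood on either strand in windows of 5 of 13 cytosolic genes (Aars, Gars, Iars, Tars and Yars) and of none of 14 mitochondrial genes. They occur in 3.97% of all 32851 windows. The letters GCGCATGC, the core of sites for the nuclear respiratory factor NRF1, stood in windows of 3 of 14 mitochondrial genes (Rars2, Vars2 and Wars2) and of none of 13 cytosolic genes, against 2.71% of all windows. The E-box CACGTG, which Myc and Max bind, stood in those of Aars, Farsb, Iars, Tars and Ears2, against 7.15% of all windows. NRF1 cores and E-boxes were searched after the values were known. Both hold a CpG, and the members' windows were richer in CpG than all windows (values below). The shares over all windows are therefore not a matched background for these 2 elements, and no matched share was computed. Such a match shows only that the letters are present in the window, not that a factor binds there.

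The next lines show 80 bases before and 20 bases from the RefSeq start, on the strand of the gene, for the genes that hold the Atf4-type or NRF1-type letters, which are in capitals. Each sequence is preceded by its place in GRCm38.p6.
Aars, chr8:111033762-111033861, plus strand: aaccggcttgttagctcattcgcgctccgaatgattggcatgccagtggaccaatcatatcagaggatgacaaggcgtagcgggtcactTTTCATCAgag
Gars, chr6:55037921-55038020, plus strand: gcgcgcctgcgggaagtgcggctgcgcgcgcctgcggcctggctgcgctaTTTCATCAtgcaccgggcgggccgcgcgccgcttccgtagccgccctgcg
Iars, chr13:49682050-49682149, plus strand: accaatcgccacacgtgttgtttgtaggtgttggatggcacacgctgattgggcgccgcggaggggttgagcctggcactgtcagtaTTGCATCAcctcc
Tars, chr15:11399639-11399738, minus strand: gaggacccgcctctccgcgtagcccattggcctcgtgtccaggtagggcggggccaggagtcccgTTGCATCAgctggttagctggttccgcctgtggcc
Yars, chr4:129189823-129189922, plus strand: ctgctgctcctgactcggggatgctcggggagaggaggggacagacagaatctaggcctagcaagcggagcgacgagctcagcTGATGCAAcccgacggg
Rars2, chr4:34614877-34614976, plus strand: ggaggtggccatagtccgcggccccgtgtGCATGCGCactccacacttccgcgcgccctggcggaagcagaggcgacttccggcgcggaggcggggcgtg
Vars2, chr17:35667573-35667672, minus strand: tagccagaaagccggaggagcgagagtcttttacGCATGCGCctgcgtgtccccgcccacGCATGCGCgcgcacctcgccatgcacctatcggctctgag
Wars2, chr3:99141010-99141109, plus strand: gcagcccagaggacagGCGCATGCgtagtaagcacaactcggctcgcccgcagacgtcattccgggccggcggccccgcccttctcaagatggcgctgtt

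Vars2 held its core at 2 places, and Aars held a second Atf4-type match, which lies before the stretch shown. The 3 members with the ratios farthest from 1, Qars, Dars and Ears2, held neither the Atf4-type nor the NRF1-type letters in their windows. Their stretches are given for comparison, all in lower case.
Qars, chr9:108507925-108508024, plus strand: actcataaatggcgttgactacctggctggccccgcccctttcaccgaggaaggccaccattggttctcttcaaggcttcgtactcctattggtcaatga
Dars, chr1:128417397-128417496, minus strand: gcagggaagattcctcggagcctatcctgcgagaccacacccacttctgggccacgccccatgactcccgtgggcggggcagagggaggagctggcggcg
Ears2, chr7:122067067-122067166, minus strand: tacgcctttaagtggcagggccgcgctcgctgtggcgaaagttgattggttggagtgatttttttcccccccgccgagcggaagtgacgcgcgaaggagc

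The windows of both compartments were rich in CpG. The median ratio of observed to expected CpG was 0.712 over the cytosolic windows and 0.739 over the mitochondrial ones, beside 0.384 over all windows.

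The synthetase genes differed little between the libraries. Values are scaled read counts, abbreviated CPM, relative to a library of 1000000 counts, after scaling by the TMM method, in the vehicle and then in the brequinar library, and ratios are brequinar over vehicle. All 37 genes passed the filter of a mean of at least 1 CPM, with between 409 and 206892 counts a library. None was at least 2-fold different, where 4.4% of the 11504 genes that passed were at least 2-fold lower and 6.45% at least 2-fold higher. At a limit of 1.5-fold, Qars and Ears2 were lower and no member was higher, while 12.7% of all genes were lower by that limit and 12.7% higher.

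Most members leaned slightly to the lower side. The log2 ratio was below 0 in 30 of 37 genes, against 49.9% of all genes, and the median was -0.13 beside 0.00029 over all genes. For 22 members the exact 95% interval of the ratio, which covers counting error only, lay wholly below 1 (37.7% of all genes), and for 4 wholly above (39.2% of all genes). For the other 11 it held 1. The median depends on the scaling in size: total counts alone in place of TMM moved every log2 ratio by -0.092, and the median of all genes with them, to -0.091.

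**Figure D1:**
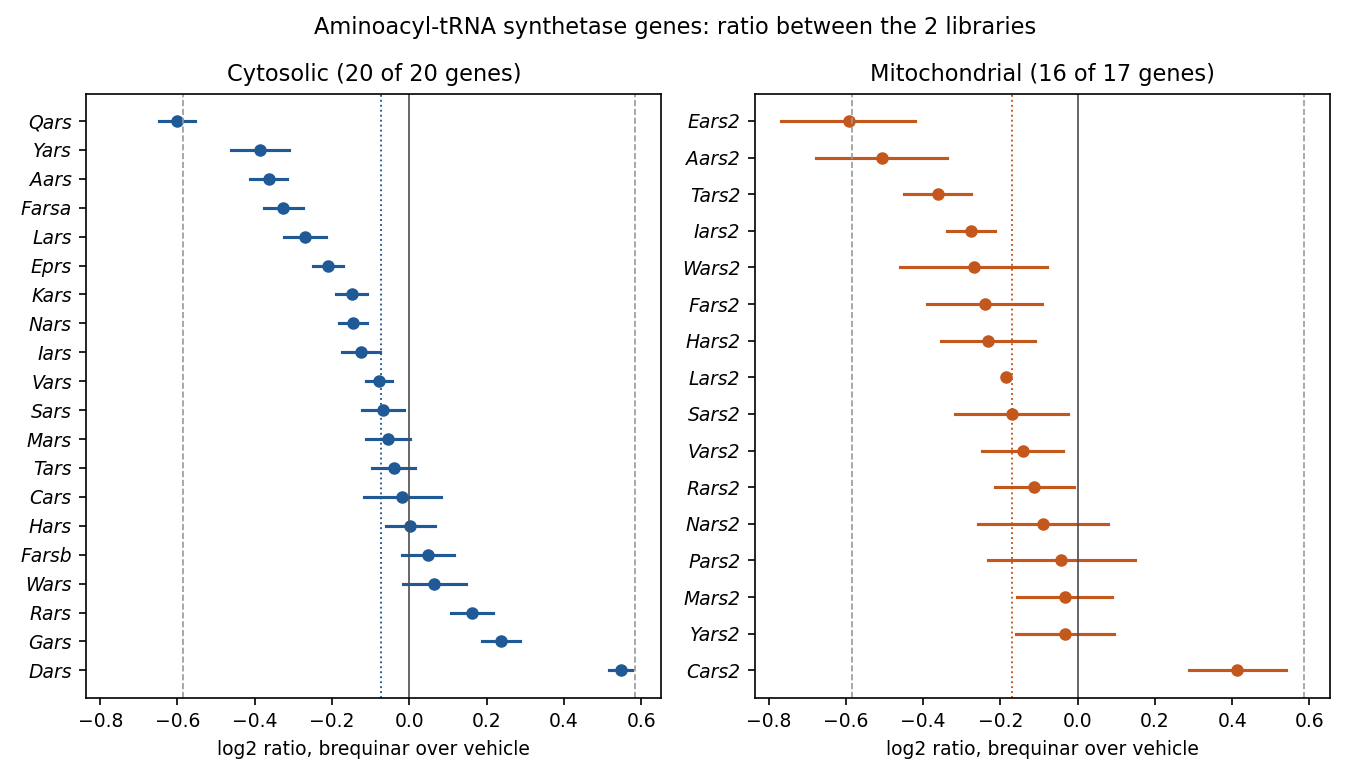
Log2 ratio (brequinar over vehicle) of each synthetase gene, cytosolic at left and mitochondrial (16 of 17 shown) at right. Points are the ratios of 1 library against 1, bars the exact 95% counting interval, dashed lines the 1.5-fold limits and dotted lines the median of each panel (-0.073 and -0.17). Qars and Ears2 lie just beyond the lower limit, and Dars and Cars2 stand apart on the higher side.

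Among the 20 cytosolic genes, 14 had a log2 ratio below 0 and 6 above, with a median of -0.073 and a range from -0.60 to 0.55. Qars, the glutaminyl-tRNA synthetase (ENSMUSG00000032604.11, chromosome 9, 108507706 to 108515941, plus strand, GRCm38), stood at 189 and 124 CPM. It was 1.52-fold lower (interval 1.47 to 1.57), just past the 1.5-fold limit, and was the lowest of the cytosolic group by ratio. Next came Yars, for tyrosine, at 69.6 and 53.3 CPM, Aars, for alanine, at 167 and 129.8 CPM, and Farsa at 153 and 122 CPM. Farsa encodes the alpha subunit of the phenylalanine enzyme, whose beta subunit gene, Farsb, stood at 73.9 and 76.5 CPM. The 2 subunits of this enzyme thus had log2 ratios of -0.33 and 0.049.

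Dars was the cytosolic gene with the highest ratio and the highest level. It encodes aspartyl-tRNA synthetase (ENSMUSG00000026356.12, chromosome 1, 128363707 to 128417368, minus strand) and stood at 318 and 465 CPM, which is 1.46-fold higher (interval 1.43 to 1.49). With total counts alone its log2 ratio was 0.46. Gars, for glycine, stood at 123 and 145 CPM, and Rars, for arginine, at 105 and 117 CPM, and these 3 genes were the cytosolic ones with an interval wholly above 1.

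The other cytosolic genes lay close together. Lars, the leucine enzyme, which also acts as a leucine sensor for mTORC1, stood at 127 and 105 CPM, and Eprs, the fused enzyme for glutamate and proline, at 244 and 211 CPM. Kars, which serves both cytosol and mitochondrion as Gars does, stood at 218 and 197 CPM. Nars stood at 265 and 239 CPM, Iars at 144 and 132 CPM, and Vars, which binds elongation factor eEF1, at 302 and 285 CPM. Their ratios all lay between those of Farsa and Sars (117 and 112 CPM). Intervals that held 1 were found for Mars, Tars, Cars, Hars, Farsb and Wars.

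Wars, for tryptophan, is known as an interferon-induced gene. It stood at 48.5 and 50.7 CPM, a ratio of 1.05 (interval 0.988 to 1.11). In the same libraries 14 of 21 measured genes of an interferon response list were at least 1.5-fold higher and 1 was lower, with a median log2 ratio of 0.81. Over all genes 12.7% were higher and 12.7% lower by this limit. Below the filter, Mx1 of this list was lower (1.54 and 0.237 CPM), and Ido1 stood at 0.930 and 1.05 CPM. Ifit3 (0.424 and 2.67 CPM), Gbp2 (21.2 and 87.9 CPM), Zbp1 (9.62 and 38.3 CPM) and Cxcl10 (4.53 and 11.2 CPM) had the largest ratios of that list. Wars was thus within its counting error of no difference while most measured genes of the list were higher.

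Among the 17 mitochondrial genes, 16 had a log2 ratio below 0, with a median of -0.17 and a range from -0.59 to 0.41. Ears2, which charges glutamate (ENSMUSG00000030871.8, chromosome 7, 122037213 to 122067263, minus strand), stood at 14.5 and 9.62 CPM. It was 1.51-fold lower, and its interval of 1.34 to 1.70 lay on both sides of the limit. Aars2, for alanine, stood at 14.5 and 10.2 CPM and was 1.42-fold lower, and it passed the 1.5-fold limit with total counts alone. Tars2 stood at 52.4 and 40.7 CPM and Iars2 at 96.7 and 79.9 CPM. Wars2, Fars2, Hars2, Lars2, Sars2, Vars2 and Rars2 also had intervals wholly below 1, with log2 ratios from -0.27 to -0.11.

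Cars2, the mitochondrial cysteine enzyme (chromosome 8, 11513977 to 11550783, minus strand), was the single mitochondrial gene with a higher value in the brequinar library. It stood at 18.9 and 25.2 CPM, 1.33-fold higher (interval 1.22 to 1.45). Yars2 (21.6 and 21.1 CPM), Mars2 (23.0 and 22.5 CPM), Pars2 (9.62 and 9.34 CPM) and Nars2 (12.5 and 11.8 CPM) had intervals that held 1.

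Exons of 14 members overlap those of another gene, and whether reads were counted by strand is not stated, so the share of reads that belongs to these members is uncertain. The deposited counts set aside 1.23% of the vehicle and 1.12% of the brequinar total as ambiguous. Reads of the shared exons may be among these and so be missing from both genes. Aars shares 1326 bases with Exosc6, which lies on the same strand, so there a count by strand would not separate the genes either. No row under the symbol Exosc6 was found in the deposited counts, so its reads may be counted to Aars. Exons of Cars2 share 422 bases with Naxd on the opposite strand, which stood at 40.6 and 27.02 CPM, a lower value where Cars2 was higher. For Ears2 the shared stretch is 89 bases with Ubfd1 (44.7 and 35.9 CPM). Iars2 shares 2034 bases with Rab3gap2, which stood at 121 and 100.6 CPM, a log2 ratio of -0.26 beside -0.28 for Iars2. Mars and Ddit3, the gene of the stress factor Chop, share 68 bases, and Ddit3 stood at 8.18 and 7.53 CPM. Among the 9 mitochondrial genes without such an overlap, all 9 had log2 ratios below 0 and none was 1.5-fold lower.

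Glutamine is charged by different routes in the 2 compartments. The genes of both routes were put together after their values were seen, so that their shared direction is a description and supports nothing. In the cytosol Qars does it directly. In the mitochondrion Ears2 first places glutamate on the glutamine tRNA, and the amidotransferase made of Gatb, Gatc and Qrsl1 converts it to glutamine. Gatb stood at 22.9 and 16.0 CPM, 1.44-fold lower (interval 1.31 to 1.58), Gatc at 24.0 and 19.0 CPM, and Qrsl1 at 18.4 and 16.2 CPM. Like those of Qars and Ears2, these 3 intervals lay wholly below 1, as for 37.7% of all genes, and of the 5 genes Qars and Ears2 passed 1.5-fold (12.7% of all genes). Slc1a5, a glutamine transporter, stood at 127 and 77.8 CPM.

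Each amino acid with an enzyme in both compartments allows a comparison that no scaling of the libraries can shift. There were 18 such pairs over 17 amino acids, with Farsa and Farsb each set against Fars2, and Eprs against both Ears2 and Pars2. The cytosolic gene had the higher ratio in 11 pairs and the mitochondrial gene in 7, and the median difference in log2 ratio, cytosolic minus mitochondrial, was 0.12. Counting intervals of the difference lay wholly above 0 in 8 pairs, wholly below in 3, and held 0 in 7. Since pairs share Fars2 or Eprs and each group is 1 library, these counts describe the 2 libraries.

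Among the pairs given here, cysteine showed the widest gap, with Cars at 34.8 and 34.3 CPM and Cars2 higher, a difference of -0.43 (interval -0.59 to -0.27). For glutamate, the ratio of Eprs stood above that of Ears2 by 0.38 (interval 0.21 to 0.56). Tyrosine, like cysteine, had the higher ratio on the mitochondrial side, with a difference of -0.35 between Yars and Yars2 (interval -0.50 to -0.21). For tryptophan the difference was 0.33 (interval 0.13 to 0.54), with Wars2 at 10.6 and 8.80 CPM. Between the medians of the 2 compartments the difference was 0.097, beside the median difference of 0.12 over all pairs. These 4 pairs were named for being among the widest, so their larger size follows from that choice.

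**Figure D2:**
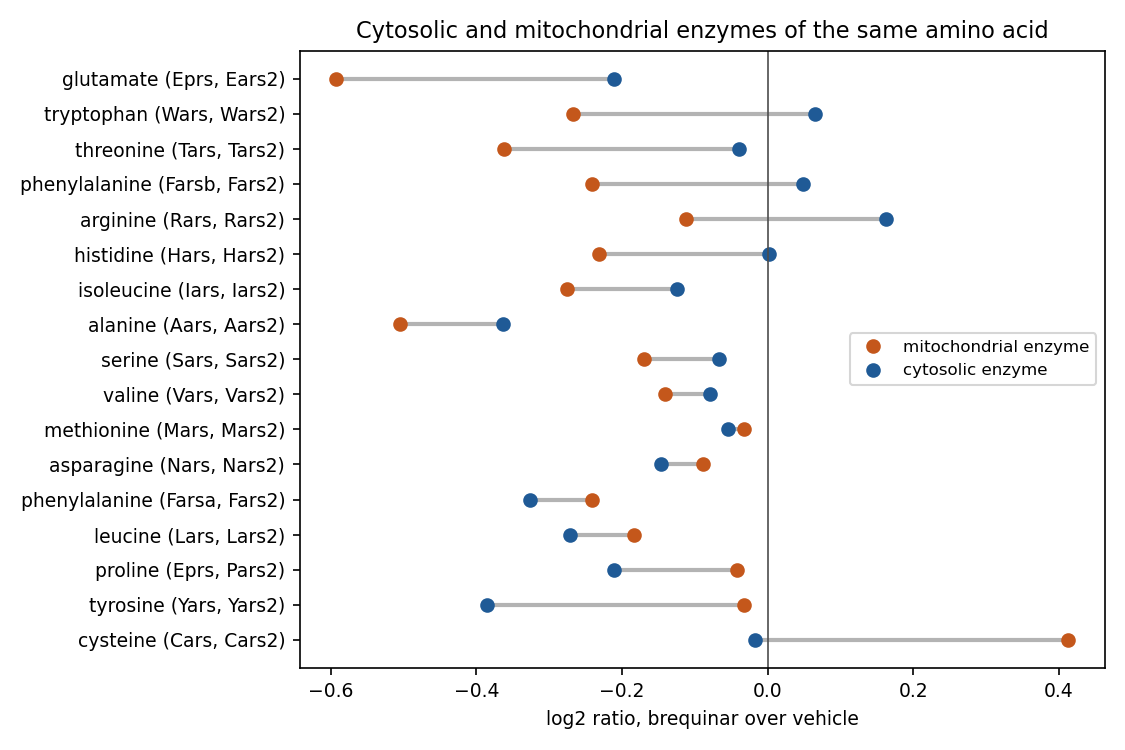
Log2 ratio (brequinar over vehicle) of the cytosolic (blue) and mitochondrial (orange) enzyme gene of 17 of the 18 pairs, ordered by their difference from cysteine at the bottom to glutamate at the top, with 1 line a pair and 1 library a treatment. In 10 of the 17 pairs shown the cytosolic point lies to the right.

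Levels between genes were compared per kilobase of the longest annotated transcript. Cytosolic synthetase genes stood well above mitochondrial ones, with medians of 39.3 and 7.33 CPM per kilobase in the vehicle library and 37.0 and 6.64 in the brequinar library. Within amino acid pairs the cytosolic level was the higher in 17 of 18, by a median of 6.86-fold in the vehicle library, and the exception was leucine. Dars had the highest cytosolic level (146 and 214 CPM per kilobase), followed in the vehicle library by Nars (96.5) and Kars (90.1). Cars (10.8), Wars (16.9) and Yars (23.9) had the lowest. Besides Lars2, the mitochondrial levels ran from 2.04 for Mars2, whose single annotated transcript is 11294 bases long, over Wars2 (2.41) and Ears2 (2.97), up to Iars2 (17.7) and Rars2 (18.2). With the union of exons as the length, most levels were lower, with Dars at 73.1, Eprs at 13.5 in place of 43.3, and Lars2 at 377 in place of 1074 in the vehicle library, and Eprs took the place of Wars among the lowest 3 cytosolic genes. The order within a compartment was otherwise similar (Spearman's rho 0.88 over 20 cytosolic and 0.92 over 17 mitochondrial genes).

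Lars2, annotated as the mitochondrial leucine enzyme (chromosome 9, 123366927 to 123462666, plus strand), stood far above every other member, at 4181 and 3680 CPM. It was the 6th most abundant gene of the vehicle library and the 11th of the brequinar library, 13.1 times the next synthetase in the former. Of all mitochondrial synthetase counts it held 90.5%. Its coding transcript shares an exact stretch of 52 bases, beyond the coding part, with the transcript of Gm15564, which stood at 198 and 164 CPM, a log2 ratio of -0.28 beside -0.18 for Lars2. It shares another of 41 bases with that of AA474408, which had 11 and 3 counts. The part of shared sequence in the level of Lars2 was not tested. Without Lars2 the mitochondrial genes summed to 437 and 387 CPM and the cytosolic ones to 2997 and 2891 CPM. The median log2 ratio of the mitochondrial group without it was -0.16.

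**Figure D3:**
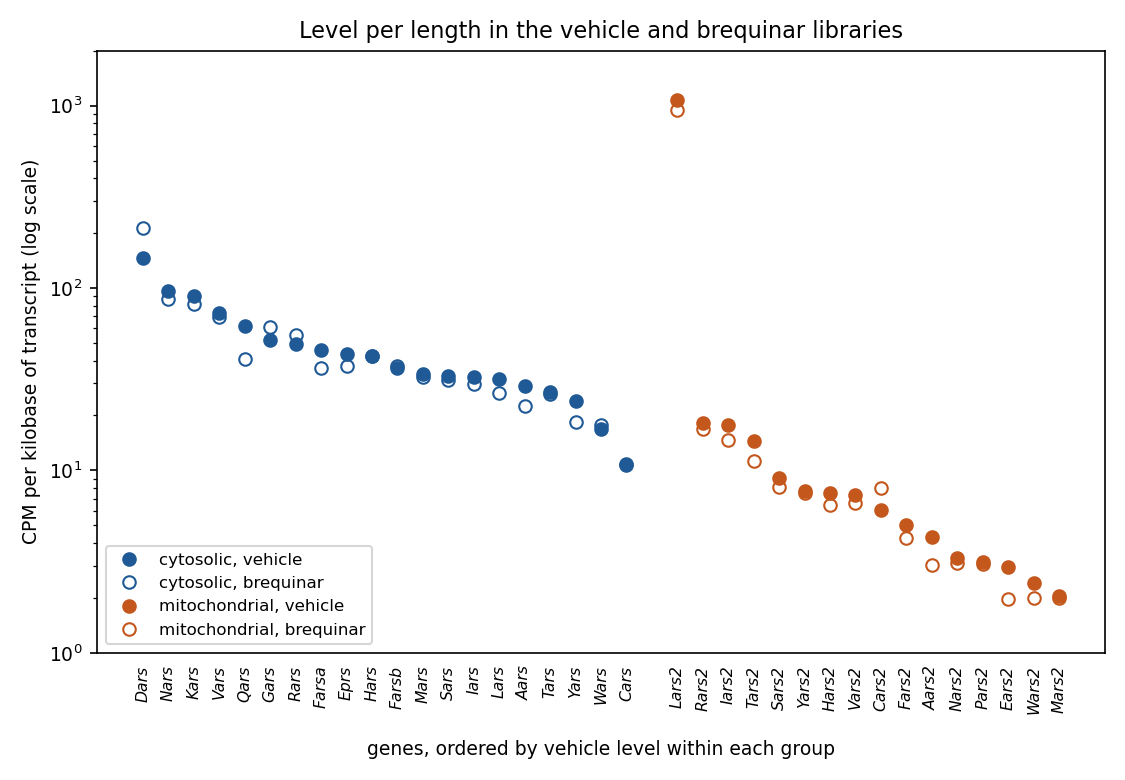
Level of the synthetase genes (16 of 17 mitochondrial ones shown) in CPM per kilobase of its longest transcript, on a log axis, with filled points for the vehicle and open points for the brequinar library. Blue is cytosolic and orange mitochondrial. Lars2 stands apart at the top of the mitochondrial group, and the other mitochondrial genes lie mostly below the cytosolic ones.

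Groups inside the cytosolic set differed by little. The 8 enzyme genes of the multisynthetase complex (Dars, Eprs, Iars, Kars, Lars, Mars, Qars and Rars) had a median log2 ratio of -0.14, with 6 below 0. The 12 outside it had a median of -0.054, with 8 below 0. Both Qars and Dars, the extremes of the cytosolic set, belong to the complex, whose enzymes thus spanned the full range from -0.60 to 0.55. The summed level of the 8 genes was 1449 and 1451 CPM. Dars made up 318 and 465 CPM of these sums, so they hide the 6 genes with lower values. Of the scaffold genes, Eef1e1 stood at 44.7 and 60.8 CPM, Aimp2 at 47.2 and 55.3 CPM, and Aimp1 at 81.7 and 73.5 CPM, none past 1.5-fold.

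Synthetases fall into 2 structural classes, with catalytic domains of unrelated fold. The 10 cytosolic genes of class I had a median log2 ratio of -0.10, and the 10 of class II one of -0.054. In the mitochondrial set the medians were -0.14 for 9 genes of class I and -0.20 for 8 of class II. The class with the lower median was therefore not the same in the 2 compartments.

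Synthetase genes listed as Atf4 targets stood close to the other cytosolic ones. The 12 cytosolic synthetase genes widely listed as Atf4 targets (Aars, Cars, Eprs, Gars, Iars, Lars, Mars, Nars, Sars, Tars, Wars and Yars) had a median log2 ratio of -0.096, with 10 below 0. The other 8 had a median of -0.038, with 4 below 0. None of the 12 passed 1.5-fold. The 5 genes with the Atf4-type letters shown above had log2 ratios of -0.39 (Yars), -0.36 (Aars), -0.13 (Iars), -0.040 (Tars) and 0.24 (Gars), and so lay on both sides of 0.

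Atf4 itself stood at 260.2 and 245 CPM. Of 26 measured Atf4 pathway genes other than synthetases, 7 were at least 1.5-fold lower and 3 higher, with a median log2 ratio of -0.19. By the same limit 12.7% of all genes were lower and 12.7% higher. The 4 ratios farthest from 1 were those of Phgdh, of serine synthesis (15.8 and 3.64 CPM), Pycr1, of proline synthesis (6.37 and 1.49 CPM), Stc2 (8.41 and 2.95 CPM) and Sesn2, a leucine sensor that p53 also induces (7.52 and 17.6 CPM). Asns, the asparagine synthetase gene and a standard marker of amino acid shortage, stood at 60.6 and 55.9 CPM. The 4 genes of the kinases that start this response by phosphorylating eIF2alpha had log2 ratios from -0.48 to -0.081. The lowest of them was Eif2ak4, which encodes Gcn2, the sensor of uncharged tRNA (36.2 and 26.05 CPM), followed by Eif2ak3 (41.9 and 31.8 CPM).

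The steps around tRNA charging were compared in the same way. In tRNA transcription by RNA polymerase III the median log2 ratio over 18 genes was -0.13, and Polr3g stood at 19.3 and 13.2 CPM. In tRNA export and end processing no gene of 6 passed 1.5-fold (median -0.0015), with Elac1 at 17.2 and 22.3 CPM and Xpot, the tRNA exportin, at 121 and 107 CPM. Of 4 measured synthetase-like and proofreading genes, Dtd1, which removes D-amino acids from tRNA, was lower (43.2 and 26.8 CPM), and Tarsl2, a second threonine enzyme, stood at 23.0 and 23.3 CPM. Among 7 genes of selenocysteine incorporation none passed 1.5-fold (median -0.024), with Sephs2 at 152 and 109.5 CPM and Sephs1 at 87.6 and 109.7 CPM.

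Elongation factors of the cytosol act after charging, and the eEF1 complex brings the charged tRNA to it. For each of the 6 genes of this list the log2 ratio was below 0 (49.9% of all genes), with a median of -0.62. At least 1.5-fold lower were 3 of the 6 (12.7% of all genes). These were Eef1b2 (926 and 544 CPM), Eef1g (694 and 408 CPM) and Eef1a1 (10994 and 6704 CPM). Eif5a, at 1519.9 and 1442 CPM, had a log2 ratio of -0.076, close to the median of the cytosolic synthetases. Processed copies of such abundant genes leave their levels uncertain.

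None of 9 measured mitochondrial translation factors passed 1.5-fold (median -0.022, or -0.15 when a mean of 10 CPM is required), with Guf1 at 27.3 and 20.7 CPM and Gfm2 at 25.2 and 19.7 CPM. Of 75 mitochondrial ribosomal protein genes, 39 were below 0 (49.9% of all genes), with a median of -0.014. At least 1.5-fold lower were 2, and none was higher, against 12.7% of all genes each way. The lower ones were Mrpl52 (14.3 and 7.41 CPM) and Mrpl38 (18.7 and 12.4 CPM). The 4 genes of mitochondrial tRNA amidation and formylation all had log2 ratios below 0 (49.9% of all genes), with a median of -0.27. They are Mtfmt, at 9.74 and 8.48 CPM, and Gatb, Gatc and Qrsl1, whose values were already given with the glutamine routes.

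**Figure D4:**
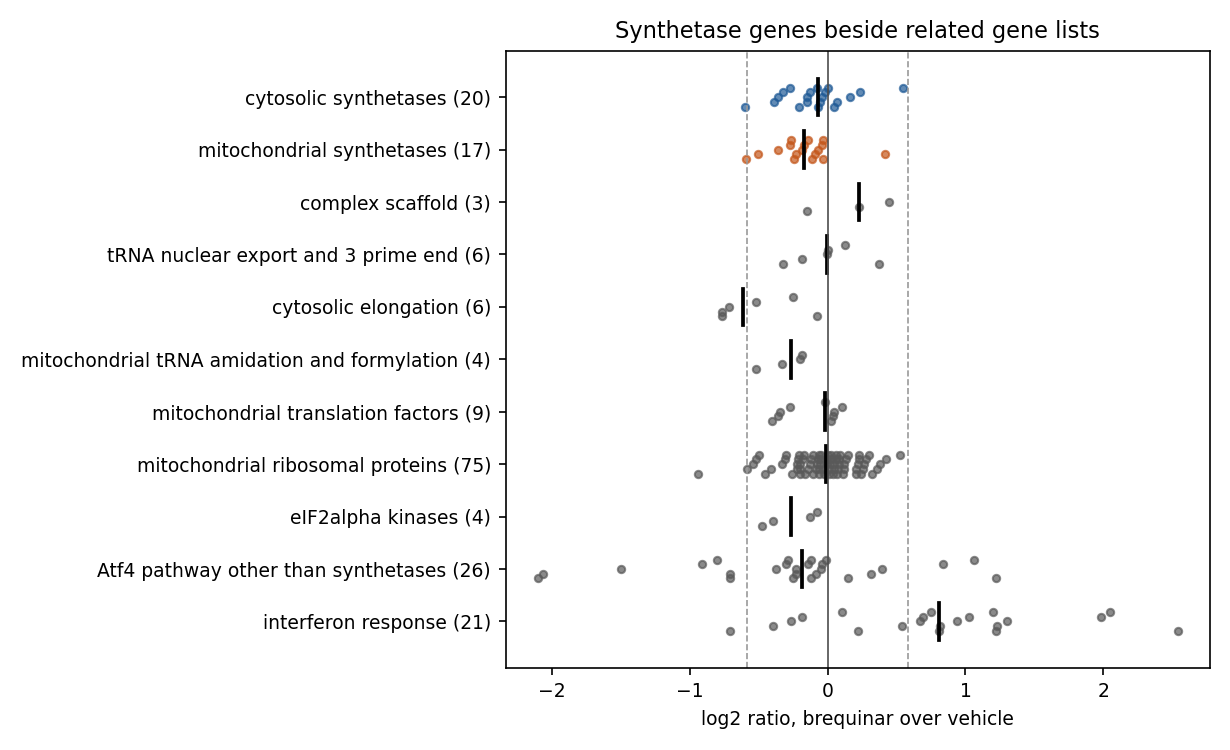
Log2 ratio (brequinar over vehicle) of every measured gene in the 2 synthetase groups and in 9 related lists, with the number of genes in brackets. Each point is 1 gene, black bars are medians and dashed lines the 1.5-fold limits. Synthetases cluster near 0, 3 of 6 cytosolic elongation factors lie past the lower limit, and most interferon response genes lie higher.

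The libraries held 47935476 and 47950714 counts in genes. All 12 leukaemia and myeloid identity genes passed the filter, among them Hoxa9 (238 and 231 CPM), Mpo (5912 and 979 CPM) and Itgam (399 and 1234 CPM). Of the 12, 5 were at least 1.5-fold lower and 2 higher, against 12.7% of all genes each way. Markers of cell state and of other cells differed between the libraries, and with 1 library each this cannot be assigned to the treatment. Of all genes, 6.45% were at least 2-fold higher and 4.4% at least 2-fold lower. All 12 markers of neutrophil maturation were at least 2-fold higher, and their sum was 1461 and 24106 CPM. Of 15 measured erythroid markers 14 were at least 2-fold higher (sum 87.7 and 301 CPM), as were 8 of 10 macrophage markers, whose sum was 7.74 and 72.7 CPM. With Vcam1 (369.6 and 496 CPM) and Adgre1 (221 and 225 CPM), which did not pass, the macrophage list summed to 598 and 795 CPM. Of B and plasma cell markers 1 of 5 was at least 2-fold higher and 1 lower (sum 34.7 and 20.04 CPM). Of 8 stromal and endothelial markers, the 2 that passed the filter, Pecam1 and Pdgfrb, were at least 2-fold lower. Below the filter, Lepr, Col1a1 and Col1a2 were higher and Cxcl12, Cdh5 and Kdr lower. The sum over all 8 was 34.3 and 12.2 CPM. No T or NK cell marker reached the filter (sum 1.03 and 3.08 CPM), and no marker of these lists was at 0 in both libraries. In bulk samples fewer cells of a type and less RNA per cell cannot be told apart. The part of these differences in the synthetase values was not tested.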

How the data were processed

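The deposited values were whole-number read counts per gene, made by the authors without normalization. Per the labels' protocols, mRNA selected by oligo dT went into libraries that keep strand, read as 101-base pairs. Per the submitters' processing notes, tools included STAR 2.4.2a and Picard 1.99 and 2.2.4, with build mm10. The counting program, its strand setting and its annotation are not stated there. The 4 lines that name no gene (21.6% of the vehicle and 20.2% of the brequinar total, reads mapped to several places included) were left out.

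Symbols and positions came from GENCODE mouse release 21 (GRCm38). TMM factors from the whole table (edgeR 4.0.16, R 4.3.3) were 1.03 and 0.969, and log2 ratios used a prior count of 2. A single count was worth 0.0202 and 0.0215 CPM. Limits of 1.5-fold and 2-fold took the place of a test. Intervals are exact (Clopper-Pearson, 95%), or by the normal approximation on log counts for a difference between 2 genes. They cover counting error only, since 1 library per treatment gives no spread between animals or libraries. PCR copies cannot be told from separate molecules, so the intervals may be too narrow even for that error. The calculation was tested on counts simulated with counting error only and few genes changed, as many higher as lower. That test does not show how the scaling behaves under the differences of these libraries. Members and lists were chosen with earlier results of these data known. Genes were named by rule: per compartment the 4 highest and 4 lowest ratios and the 3 highest and 3 lowest levels per length, members past 1.5-fold, the 5 widest pairs (4 of them given), up to 4 genes a list, and Wars, Kars and Gars. Any others were named after their values were seen. Alternatives used DESeq2 1.42.0 size factors, total counts, upper quartiles, other filters and prior counts, exon-union lengths, and members left out. Python 3.11.15 was used. Protein sequences were not analysed here, and some results that the rule would name are not reported here.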

Additional observations from a re-analysis of the deposited data

How the results depend on the processing

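With 1 library per treatment no replicate could be left out, and no paired analysis was possible because each treatment has a single library. Over 3 other scalings, 2 other filters, 2 other prior counts and 3 sets of members left out, both medians kept their sign, and the cytosolic median stayed above the mitochondrial one. With total counts alone, the cytosolic median moved to -0.16 and 2 mitochondrial genes were at least 1.5-fold lower, Ears2 and Aars2. Without members whose exons overlap another gene, 0 of the 9 mitochondrial genes left were at least 1.5-fold lower and 9 were below 0, since Ears2 is among those left out. The count of cytosolic genes past 1.5-fold was 1 lower and none higher in each setting. Qars and Ears2 lie so near 1.5-fold that the limit, rather than their values, sets this count. The list median for B and plasma cells turned to 0.30 without a filter, and that for selenocysteine genes to 0.030 at a mean of at least 10 CPM. Leaving out Lars2 was chosen after seeing the data. Counting error was widest for mitochondrial genes with few counts, down to 409 counts for Wars2, and narrowest for Lars2, also mitochondrial.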
